A study of Mus musculus with 12 samples.

Results

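The response of liver macrophages to an agonistic antibody against CD40 was compared between 2 genotypes as a difference of differences. The quantity is the interaction: the log2 response to anti-CD40 (anti-CD40 over saline) in sph/sph mice minus the same response in control mice. All 12 of the 12 libraries of the series enter it, 3 in each of 4 groups, in a single fit. The groups are wild-type (WT, genotype Spta wt/wt) mice given saline, WT mice given anti-CD40, mice homozygous for the sph allele (Spta sph/sph) given saline, and sph/sph mice given anti-CD40. The antibody was injected into the peritoneum at 20 mg/kg, and the labels give 30 h after injection. The mice are labelled as males of 8 to 10 weeks, and the controls as littermates. Each library came from the nonparenchymal cells of 1 liver, enriched with beads against F4/80, the macrophage surface protein that Adgre1 encodes, so other cells can remain in it. The columns of the deposited table call the control genotype heterozygous while the labels call it wild type, so a heterozygous control cannot be told apart from a wild-type one here. The libraries of a group are called A, B and C by column order, which pairs nothing. The names of 4 columns share 2 long numbers whose meaning is not given. Library A of both genotypes under saline shares 1, and library A of both genotypes under anti-CD40 the other. The saline pair also shares the shorter number after the letters SM, whose meaning is not given either.

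Kupffer cells are the resident macrophages of the liver sinusoids. They bind bacteria and debris through receptors such as VSIG4 and CLEC4F, take up aged red cells and haemoglobin, and return iron to plasma through ferroportin. CD40 is a receptor of the tumour necrosis factor receptor family on macrophages, dendritic cells and B cells; agonistic antibodies to it drive NF-kB signalling and the release of interleukin 12 and other inflammatory mediators. Mice homozygous for the sph allele have fragile spherical red cells and a chronic haemolytic anaemia that loads macrophages with heme and iron.

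Library totals lay between 14991250 and 18984067 counts, and levels are given as CPM, counts scaled by library size and by the trimmed mean of M values. Library C of the sph/sph anti-CD40 group stood apart before any test. Its summed level of the inflammatory cytokine and chemokine list was 470 CPM, against 3091 and 2950 CPM in libraries A and B of its group and 639 to 1148 CPM in the saline libraries. Its summed level of 24 B cell markers was 6521 CPM, against 236 to 1153 CPM in the other anti-CD40 libraries. Library A of WT anti-CD40 also differed from the other libraries of its group, with a chi-square per gene of 135.5 and 207.4 against 72.0 between B and C; for library C of sph/sph anti-CD40 these values were 244 and 232 against 51.8 between A and B. Library C of sph/sph anti-CD40 is kept in the values, and its omission is given beside the lists and named genes it bears on. A library of every group, 4 in all, held 0 counts of 4 Y-linked genes although its label says male; these are the 4 A libraries. The defining macrophage markers were present in every library: summed over 12 markers they lay between 7935 and 20531 CPM. In bulk RNA, fewer cells of a type and less RNA per cell cannot be told apart.

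Of 13844 genes tested, the interaction was called for 595, or 4.30%, at an edgeR adjusted p under 0.05. It was higher for 440 genes (3.18%) and lower for 155 (1.12%), and 2603 genes (18.8%) had an unadjusted p under 0.05. A positive interaction arises both when a gene is less reduced by anti-CD40 in sph/sph and when it is more induced there. Of the 595 genes, 389 had negative responses in both genotypes with the smaller one in sph/sph, 110 had positive responses in both with the smaller one in sph/sph, and 96 had responses of opposite sign. No called gene responded in the same direction with a larger size in sph/sph, while 838 and 1629 genes that were not called had a larger negative or a larger positive response there. The median response of the genes called higher was -2.85 in WT and -0.58 in sph/sph. For the genes called lower these medians were 2.92 and 0.34, and over all tested genes the median interaction was 0.05. Because the WT response enters the interaction with a minus sign, these shapes describe the called genes and are no separate test. Without library C of sph/sph anti-CD40 the interaction was called for 942 genes (6.70%), 605 higher (4.30%) and 337 lower (2.40%), of which 566 are among the 595. In that fit the opposite-sign class held 358 genes, and 7 genes had a larger response in sph/sph, 3 of them negative and 4 positive. The count was 944 without WT anti-CD40 A, 622 without sph/sph anti-CD40 A, 338 to 388 without WT anti-CD40 B or C or sph/sph anti-CD40 B, and 259 to 445 without any saline library in turn, so it depended on single libraries. For each named gene the text gives the omitted libraries that end its call. A gene is said to hold where it was called in all 12 of these leave-one-out fits. Limma-voom is separate and did not call 27 of the 109 named genes that edgeR called, among them Chp2, Cxcl13 and Epor. The shares of all tested genes, 3.18% higher and 1.12% lower, are those to read each list's count against.

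**Figure D1:**
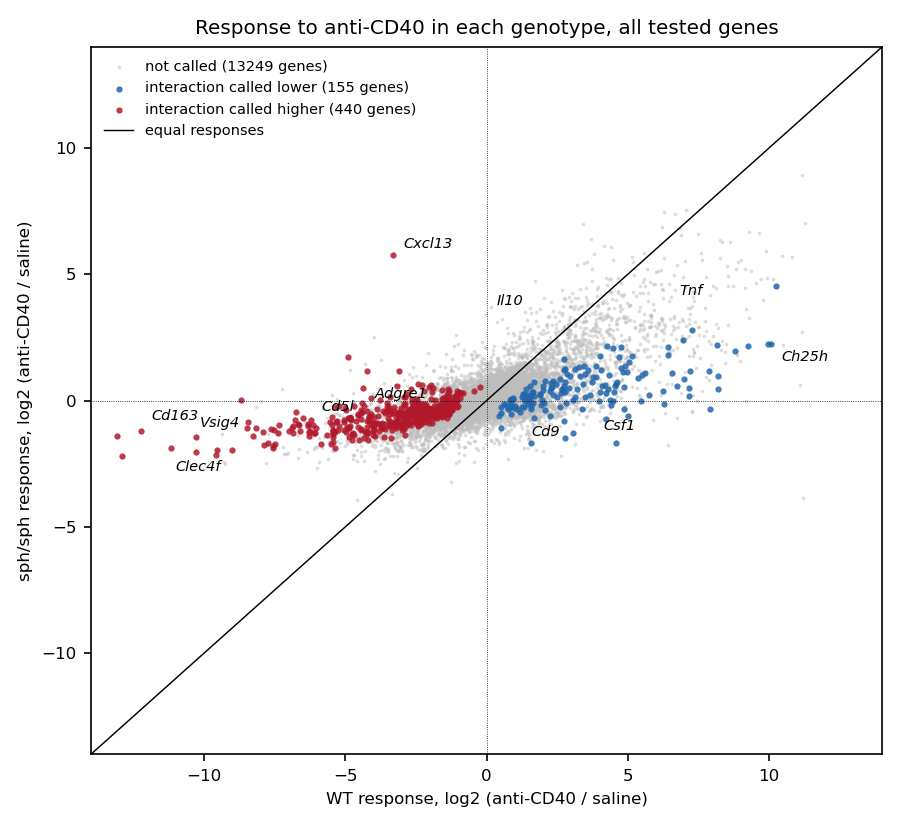
Log2 response to anti-CD40 in WT (horizontal axis) and in sph/sph (vertical axis) for all 13844 tested genes, one point per gene, red where the interaction was called higher (440), blue where it was called lower (155) and grey otherwise. The line marks equal responses; red points sit left of it and mostly below 0 on both axes, and blue points sit right of it and mostly above 0 on both axes.

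The genotype difference that makes up the interaction was larger under anti-CD40 than under saline for 415 of the 440 genes called higher and for 101 of the 155 called lower. In 553 of the 595 called genes (92.9%) the 3 WT and the 3 sph/sph libraries under anti-CD40 did not overlap, against 28.4% of all tested genes. For 262 called genes the 2 genotypes differed by less than 0.5 (log2) under saline and by more than 1 under anti-CD40, 215 higher and 47 lower. The reverse held for 15 called genes, 3 higher and 12 lower. These limits of 0.5 and 1 were chosen after the values were seen. The counts by size of the genotype difference were taken over called genes alone. No share of all tested genes stands beside them, so they only describe the called genes.

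The Kupffer cell identity list had the highest median interaction of the 36 lists. Of 26 tested genes of the Kupffer cell identity list, 17 were called higher, against 3.18% of all tested genes, and none lower (3 lower at an unadjusted p under 0.05, 2 lower by DESeq2 and none by limma-voom), with a median interaction of 4.53 against 0.05 over all tested genes. Without library C of sph/sph anti-CD40, 16 were higher and 1 lower, the chemokine receptor gene Xcr1, which is also on the dendritic cell list. The median response of the list was -4.38 in WT and -0.97 in sph/sph. Clec4f, which encodes a Kupffer cell lectin (chromosome 6, 83644542 to 83656187, - strand, GRCm38), had 10361, 9764 and 9962 CPM in the saline-treated WT libraries. The saline-treated sph/sph libraries had 7466, 5989 and 9634 CPM. Under anti-CD40 it was at 2.93, 2.41 and 7.53 CPM in WT and at 828, 1601 and 3869 CPM in sph/sph. The saline libraries of both genotypes were the highest, and the anti-CD40 groups did not overlap; the WT libraries had single-digit levels. Its interaction was 9.31 (SE 0.90, adjusted p 4.26e-04), with a 95% confidence interval of 7.31 to 11.31. Vsig4, the complement receptor that binds C3b-coated bacteria (chromosome X, 96247203 to 96293438, - strand), lay at 7.05, 0.210 and 0.542 CPM in WT anti-CD40 and at 604, 985 and 1804 CPM in sph/sph anti-CD40, against 2651 to 3629.6 CPM over the 6 saline libraries. Its interaction was 8.85 (SE 1.38, adjusted p 0.00716). Both genes stayed called in every one of the 12 fits that left out 1 library.

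The Vsig4 promoter is shown as that of a single gene of the Kupffer cell list. Siglece, described further on, encodes an inhibitory sialic acid receptor of myeloid cells. Its promoter is shown because it held the most matches among the genes named here. Both are the 250 bases before the RefSeq start site (GRCm38.p6, minus strand, 5′ to 3′), at chrX:96293439-96293688 and chr7:43660162-43660411. Capitals mark GAGGAA, the core bound by the myeloid factor PU.1, searched on both strands and also as its reverse complement.
Vsig4: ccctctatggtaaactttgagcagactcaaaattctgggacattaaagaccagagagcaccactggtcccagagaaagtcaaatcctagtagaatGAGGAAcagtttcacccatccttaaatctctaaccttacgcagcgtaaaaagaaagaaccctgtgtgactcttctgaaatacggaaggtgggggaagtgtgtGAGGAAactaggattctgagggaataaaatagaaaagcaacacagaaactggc
Siglece: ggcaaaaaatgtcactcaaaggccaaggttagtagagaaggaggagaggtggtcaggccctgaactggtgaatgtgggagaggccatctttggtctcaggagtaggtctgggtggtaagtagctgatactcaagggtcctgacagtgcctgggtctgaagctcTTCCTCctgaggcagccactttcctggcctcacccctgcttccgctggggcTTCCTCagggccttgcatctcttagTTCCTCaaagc
The Vsig4 window holds 2 matches and the Siglece window 3. Among other genes of the Kupffer cell list, Clec4f, Cd163, C6, Folr2 and Timd4 held 0, and Cd5l and Ptgs1 held 1 each. Cd63 and Serpinb6b, both called lower, held 2 each.

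Cd163, a scavenger receptor that clears haemoglobin-haptoglobin complexes, had the largest interaction of the fixed macrophage genes, 11.03 (SE 0.97, adjusted p 2.72e-04). It lay at 1891, 2283 and 3122 CPM in saline-treated WT and 412, 682 and 748 CPM in saline-treated sph/sph libraries, so the genotypes already differed there. Under anti-CD40 it was at 1.13, 0.210 and 0.246 CPM in WT and 99.3, 315 and 388 CPM in sph/sph, with no overlap. Cd207, which encodes the lectin langerin, had the same form, from 1242, 1184 and 1546 CPM in WT saline to 0.133, 0.0525 and 0.246 CPM in WT anti-CD40, and from 79.9, 85.5 and 92.8 to 13.4, 19.2 and 64.5 CPM in sph/sph. Its interaction of 11.66 (SE 0.92, adjusted p 1.68e-04) was the largest of all tested genes. Chp2, a calcineurin-like calcium-binding protein, had 2 counts over the 3 WT anti-CD40 libraries, so its fitted interaction of 10.72 (SE 1.77, adjusted p 0.00897) depends on the prior count; its levels under anti-CD40 were 0.133, 0 and 0 CPM in WT and 9.95, 9.76 and 135 CPM in sph/sph. In Chp2 and in Cd207 library C of sph/sph anti-CD40 was the highest of its group, and without it the interactions were 8.35 and 10.69, both still called.

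Cd5l, a secreted scavenger protein of Kupffer cells, was among the most abundant of these genes at 11855, 9849 and 12499.9 CPM in saline-treated WT and 14808, 10768 and 16249 CPM in saline-treated sph/sph libraries. Under anti-CD40 it was at 136, 82.9 and 241 CPM in WT and 7471, 9989.7 and 7327 CPM in sph/sph, with an interaction of 5.46 (SE 0.55, adjusted p 5.38e-04). Folr2, a folate receptor of resident macrophages, had 4.98 (SE 0.55, adjusted p 8.79e-04), Gfra2, a co-receptor for neurturin, 6.29 (SE 0.40, adjusted p 3.81e-05), and C6, a component of the membrane attack complex, 6.37 (SE 0.69, adjusted p 8.40e-04). Ptgs1, the constitutive cyclooxygenase, had 3.20 (SE 0.30, adjusted p 3.99e-04), and Paqr9, a membrane progestin receptor, 5.33 (SE 0.41, adjusted p 1.25e-04). Each of these 6 stayed called whichever library was left out. Igf1, the growth factor, is not on the list and had 5.60 (SE 0.39, adjusted p 6.60e-05), from 4.52, 6.40 and 3.20 CPM in WT anti-CD40 to 230.0, 220.0 and 348 CPM in sph/sph anti-CD40.

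Adgre1 encodes the F4/80 protein that the beads bind, so its level under anti-CD40 also concerns which cells could be captured. It was at 1811, 1579 and 1942 CPM in saline-treated WT libraries, 1907, 1429.9 and 1886 CPM in saline-treated sph/sph libraries, 173, 51.4 and 39.8 CPM in WT anti-CD40 and 1178, 2237 and 1101 CPM in sph/sph anti-CD40. Only the WT anti-CD40 group lay apart from the other groups. The interaction was 4.13 (SE 0.73, adjusted p 0.0123) and stayed called in all 12 fits. Csf1r, the receptor for macrophage colony-stimulating factor, followed it with 3.11 (SE 0.49, adjusted p 0.00716). The other 10 general macrophage markers were not called, with Cd68, a lysosomal membrane protein, at 0.80 (SE 0.47) and Lyz2, lysozyme, at -0.26 (SE 0.56). Of all 12 markers, 11 had a positive interaction and only Lyz2 a negative one (median 0.93). At an unadjusted edgeR p under 0.05, 7 were higher and 0 lower. How far bead capture accounts for the interaction was not tested.

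**Figure D2:**
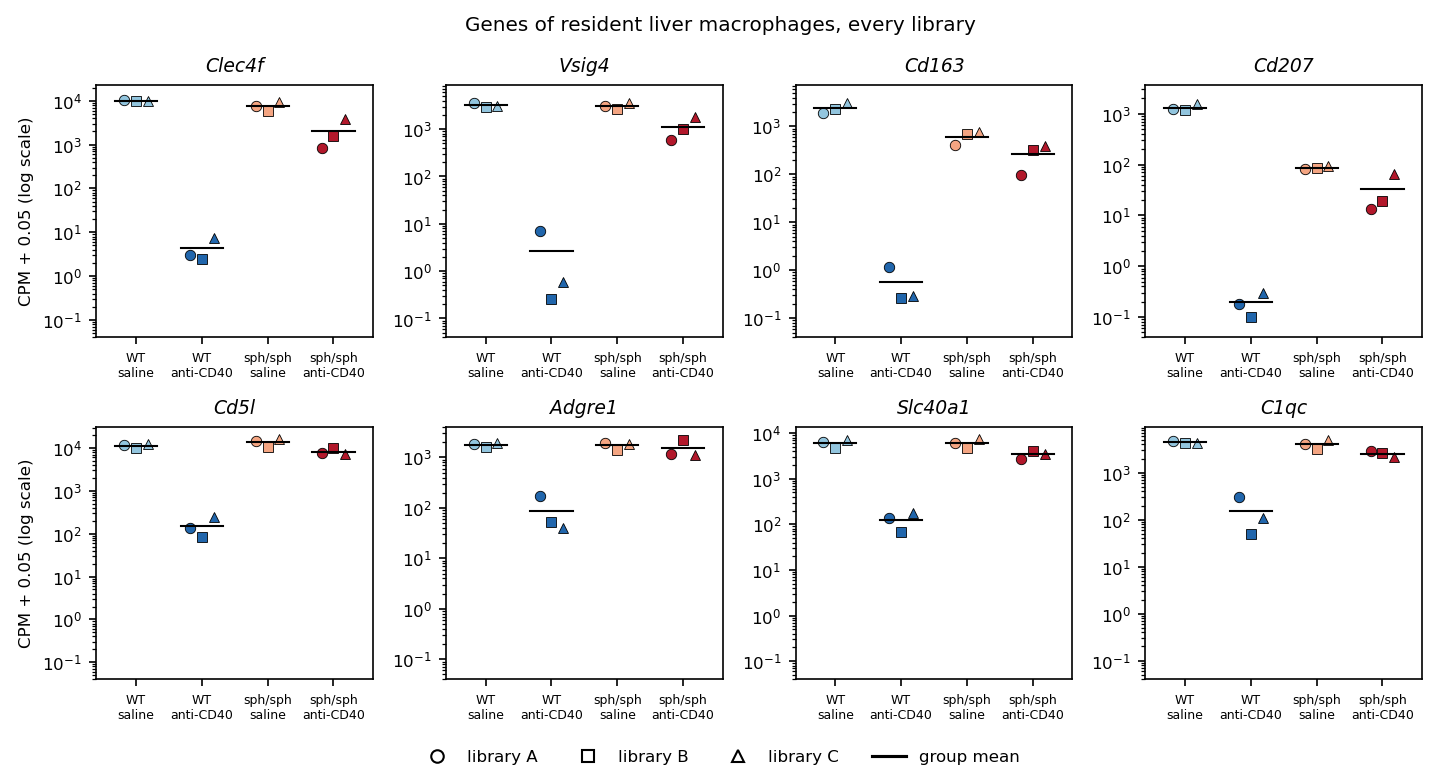
CPM plus 0.05 on a log axis for 8 genes with a positive interaction, one point per library and a bar at each group mean, by genotype and treatment. In each panel the 3 WT anti-CD40 libraries are the lowest, and the sph/sph anti-CD40 libraries lie nearer to the saline groups.

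Timd4, a phosphatidylserine receptor for dying cells, lay at 66.5, 6.51 and 23.5 CPM in WT anti-CD40 and 478, 756 and 300.1 CPM in sph/sph anti-CD40. Its interaction of 4.34 (SE 0.93, adjusted p 0.0301) was lost without any saline library, C of WT anti-CD40, or B of sph/sph anti-CD40, with an adjusted p of up to 0.0925. Cxcl13, a B cell chemokine that Kupffer cells also make, had opposite responses, -3.30 in WT and 5.77 in sph/sph. Its sph/sph anti-CD40 libraries were at 278, 308 and 1.56 CPM, so that library C was below A and B by more than 100 CPM. The interaction of 9.07 (SE 2.09, adjusted p 0.039) was lost without any saline library, B or C of WT anti-CD40, or A or B of sph/sph anti-CD40 (adjusted p up to 0.115) and was 9.69 without library C of sph/sph anti-CD40 (adjusted p 0.00342). Members that were not called included Marco, a scavenger receptor, at 0.81 (SE 0.79), and Lyve1, a hyaluronan receptor that is also an endothelial marker, at -3.36 (SE 0.94, adjusted p 0.0771). Marco lay at 274 to 941 CPM over the 6 WT libraries and at 5734 to 21801 CPM over the 6 sph/sph libraries, so it differed by genotype in both treatments without a called interaction.

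Of 19 complement genes tested, 5 were called higher and none lower, with a median interaction of 1.03. C6 and Vsig4 are also on the Kupffer cell list, and the others are the chains of C1q. C1q, which tags immune complexes and dying cells, has 3 chains, with interactions of 3.52 for C1qa, 3.98 for C1qb and 4.16 for C1qc (SE 0.71, 0.70 and 0.75; adjusted p 0.0227, 0.0123 and 0.0131). C1qc lay at 305, 49.2 and 109.5 CPM in WT anti-CD40, at 2855, 2662 and 2153 CPM in sph/sph anti-CD40 and at 3219 to 5094 CPM under saline. The WT and sph/sph anti-CD40 libraries did not overlap. C1qa was lost without A or C of WT saline, A or B of sph/sph saline, C of WT anti-CD40, or B of sph/sph anti-CD40 (adjusted p up to 0.0748), while C1qb and C1qc were called in all 12 leave-one-out fits.

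Of 33 heme and iron genes tested, 5 were called higher and none lower (median 0.55). Slc40a1, ferroportin, the iron exporter (chromosome 1, 45908068 to 45926523, - strand), was at 6332, 4670.1 and 6959 CPM in saline-treated WT and 6049.9, 4825 and 7377 CPM in saline-treated sph/sph libraries. It was at 135, 67.3 and 179 CPM in WT anti-CD40 and 2758, 3977 and 3519 CPM in sph/sph anti-CD40. The saline groups overlapped and the anti-CD40 groups did not, and the interaction was 4.73 (SE 0.52, adjusted p 8.69e-04). Hfe, the haemochromatosis protein that takes part in iron sensing, had 3.73 (SE 0.49, adjusted p 0.00232). Slc48a1, which carries heme out of the phagolysosome, had 1.48 (SE 0.33, adjusted p 0.033), and Fech, ferrochelatase, the last enzyme of heme synthesis, had 1.21 (SE 0.25, adjusted p 0.0233). Slc48a1 was lost without any WT saline library, A or B of sph/sph saline, B or C of WT anti-CD40, or B of sph/sph anti-CD40 (adjusted p up to 0.0987) and Fech without A or C of WT saline, A or C of sph/sph saline, B or C of WT anti-CD40, or B of sph/sph anti-CD40 (adjusted p up to 0.0741). Hmox1, heme oxygenase 1, which opens the heme ring, was not called: 0.55, with an interval of -0.61 to 1.72. It lay at 533 to 1969 CPM over the WT libraries and 6047 to 13116 CPM over the sph/sph libraries. Spic, the factor needed for iron-recycling macrophages, was at 1.52 (SE 0.54, adjusted p 0.156) and was called only without library C of sph/sph anti-CD40 (1.88, adjusted p 0.0285). In that fit 9 genes of the list were higher and 1 lower.

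Of 28 genes of the liver X receptor (LXR) and lipid list, 5 were called higher and 2 lower (median 0.44). Pltp, phospholipid transfer protein, lay at 64.5, 41.6 and 44.3 CPM in WT anti-CD40 and 424, 625 and 724 CPM in sph/sph anti-CD40, against 1221 to 1979 CPM under saline, with 4.09 (SE 0.35, adjusted p 2.11e-04). Apoc1, an apolipoprotein, had 3.30 (SE 0.52, adjusted p 0.007), and Cyp27a1, the sterol 27-hydroxylase, 3.26 (SE 0.56, adjusted p 0.011). Abcg3, an ABC transporter, had 2.04 (SE 0.42, adjusted p 0.0246), which was lost without A or C of WT saline, any sph/sph saline library, C of WT anti-CD40, or B of sph/sph anti-CD40 (adjusted p up to 0.0786). The members called lower were Ch25h and Fabp5. Ch25h, which makes 25-hydroxycholesterol and is induced by inflammatory signals, was at 115, 258 and 335 CPM in WT anti-CD40 and 1.45, 3.48 and 1.83 CPM in sph/sph anti-CD40, against 0.0554 to 0.798 CPM under saline. Its interaction was -7.86 (SE 1.08, adjusted p 0.00347), and no library's omission ended the call. Fabp5, a fatty acid binding protein, had -1.67 (SE 0.39, adjusted p 0.0409), lost without A or C of WT saline, A or B of sph/sph saline, B or C of WT anti-CD40, or B of sph/sph anti-CD40 (adjusted p up to 0.109). Nr1h3, which encodes LXR alpha, was not called (1.81, SE 0.60, adjusted p 0.131) and was called without library C of sph/sph anti-CD40 (2.17, adjusted p 0.0344), without WT anti-CD40 A (2.36, adjusted p 0.0271), and by DESeq2 with all libraries (1.78, adjusted p 0.0431).

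Among 24 transcription factors of Kupffer cells, 3 were called higher and 2 lower (median -0.32, and -0.21 with 5 higher and 2 lower without library C of sph/sph anti-CD40). Rxra, the retinoid X receptor alpha that pairs with LXR, had 1.85 (SE 0.30, adjusted p 0.00847), and Cebpa, a myeloid lineage factor, 1.54 (SE 0.33, adjusted p 0.0305). Irf8, a monocyte and dendritic cell factor, had -1.41 (SE 0.31, adjusted p 0.034), from 969.7, 713 and 817 CPM in WT anti-CD40 to 371, 266 and 331 CPM in sph/sph anti-CD40. Bhlhe40, a repressor active in stimulated macrophages, had -2.34 (SE 0.50, adjusted p 0.0295). Rxra held in all leave-one-out fits. The calls of Cebpa were lost without any saline library, or B or C of WT anti-CD40 (adjusted p up to 0.0913), those of Irf8 without any WT saline library, A or C of sph/sph saline, B or C of WT anti-CD40, or B of sph/sph anti-CD40 (up to 0.0997), and those of Bhlhe40 without B or C of WT saline, any sph/sph saline library, B of WT anti-CD40, or A of sph/sph anti-CD40 (up to 0.0773).

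In phagocytosis and the lysosome, 4 of 36 and 2 of 38 tested genes were called higher and 1 in each list lower (medians 0.67 and 0.16), against 3.18% and 1.12% of all tested genes; the lysosome count is near these shares. The phagocytosis list had 5 higher and 3 lower without library C of sph/sph anti-CD40, and the lysosome median was then 0.30. Scarb1, a high-density lipoprotein receptor that also binds dying cells, had 1.48 (SE 0.24, adjusted p 0.00881). Itgb5, an integrin chain used in the uptake of dying cells, had 3.80 (SE 0.79, adjusted p 0.0262), which was lost without A or C of WT saline, any sph/sph saline library, or B or C of WT anti-CD40 (adjusted p up to 0.0837). Lgmn, the lysosomal protease legumain, had 2.37 (SE 0.30, adjusted p 0.00185), and Man2b1, lysosomal alpha-mannosidase, 2.44 (SE 0.41, adjusted p 0.00989). Olr1, the receptor for oxidised low-density lipoprotein LOX-1, was lower: it lay at 47.4, 67.8 and 100.0 CPM in WT anti-CD40, 2.07, 3.40 and 1.30 CPM in sph/sph anti-CD40 and at most 1.20 CPM under saline, with -6.81 (SE 1.01, adjusted p 0.00557). Cd63, a lysosomal tetraspanin, was lower as well, at -3.97 (SE 0.67, adjusted p 0.0102). Scarb1, Lgmn, Man2b1, Olr1 and Cd63 held in all leave-one-out fits.

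Several of the lowest p values belonged to genes outside the lists described so far. Pcolce2, an enhancer of procollagen processing (chromosome 9, 95637601 to 95698096, + strand), had the lowest of all, at 285, 269.7 and 245 CPM in saline-treated WT libraries, 241, 246 and 254 CPM in saline-treated sph/sph libraries, 0.997, 0.472 and 0.788 CPM in WT anti-CD40 and 77.5, 130.0 and 138 CPM in sph/sph anti-CD40. The WT anti-CD40 libraries were all below 1 CPM, and the interaction was 7.37 (SE 0.39, adjusted p 2.54e-05). Kcnj10, an inward rectifier potassium channel, had 5.82 (SE 0.33, adjusted p 2.70e-05), and its partner channel Kcnj16 had 7.44 (SE 1.28, adjusted p 0.011). Adamdec1, a disintegrin-like metalloprotease, had 6.52 (SE 0.42, adjusted p 3.81e-05), and Ccdc148, a coiled-coil protein, 6.86 (SE 0.44, adjusted p 3.81e-05). Ctsf, cathepsin F, had 4.80 (SE 0.38, adjusted p 1.62e-04), Slc16a9, a monocarboxylate transporter, 4.48 (SE 0.39, adjusted p 2.22e-04), and Ephx1, microsomal epoxide hydrolase and the one called NRF2 target, 4.22 (SE 0.41, adjusted p 4.26e-04). All of these 8 genes were called in each fit that left out 1 library. Kcnj16 was highest in library C of its sph/sph anti-CD40 group (11.2, 20.8 and 137 CPM), and without it the interaction was 5.64; limma-voom did not call it.

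Among other named genes with a positive interaction, Lilra5, a leukocyte immunoglobulin-like receptor, was at 7.78, 4.67 and 7.29 CPM in WT anti-CD40 and 101, 141 and 212 CPM in sph/sph anti-CD40, with 5.03 (SE 0.41, adjusted p 1.70e-04). Cd300e, an activating receptor of myeloid cells, had opposite responses, -4.36 in WT and 0.48 in sph/sph, with 4.84 (SE 0.60, adjusted p 0.00182). Siglece, whose promoter is printed above, lay at 32, 24.2 and 13 CPM in WT anti-CD40 and 424, 574 and 181 CPM in sph/sph anti-CD40, against 313 to 418 CPM under saline, and had 4.22 (SE 0.58, adjusted p 0.00347). These 3 held in all leave-one-out fits, and in Cd300e and Siglece library C was the lowest of its group. Ccr3, an eotaxin receptor, differed by genotype in both treatments, with 16.7 to 86.4 CPM in WT saline and 247 to 326 CPM in sph/sph saline, and had 5.05 (SE 0.89, adjusted p 0.0123), which limma-voom did not call. Ear2, an RNase of the eosinophil-associated family with near-identical copies whose reads the counting could split, had 4.02 (SE 0.33, adjusted p 1.70e-04).

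Of the 155 genes with a negative interaction, 110 had positive responses in both genotypes, smaller in sph/sph, and 45 had responses of opposite sign. Cd9, a tetraspanin that organises membrane receptors (chromosome 6, 125460266 to 125494791, - strand), had the lowest p of them. It was at 15.1, 15.7 and 17 CPM in WT saline and 96.8, 102 and 94.6 CPM in WT anti-CD40, but at 85.7, 66.7 and 70.0 CPM in sph/sph saline and 61.4, 62.5 and 63.7 CPM in sph/sph anti-CD40. The WT saline group alone was low, and the interaction was -2.86 (SE 0.17, adjusted p 2.70e-05). Cd82, another tetraspanin, had -2.37 (SE 0.32, adjusted p 0.00313). Mxd1, a partner of MAX that opposes MYC, lay at 304, 229 and 326 CPM in WT anti-CD40 and 70.2, 63.1 and 47 CPM in sph/sph anti-CD40, with -2.95 (SE 0.29, adjusted p 4.26e-04). Rhoc, a GTPase of actin and cell movement, lay at 317, 376 and 515 CPM and 56.1, 78.4 and 42.8 CPM in these groups, with -2.93 (SE 0.34, adjusted p 0.00106). Neither gene overlapped between genotypes under anti-CD40. Plec, which encodes the cytoskeletal linker plectin, had -2.74 (SE 0.40, adjusted p 0.00511), Serpinb6b, a protease inhibitor, -3.87 (SE 0.51, adjusted p 0.00255), and Laptm4b, a lysosomal membrane protein, -2.34 (SE 0.35, adjusted p 0.00541). These 7 genes were called in all 12 fits.

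Csf1, the macrophage colony-stimulating factor that signals through CSF1R, was at 242, 279.8 and 429 CPM in WT anti-CD40 and 21.8, 28.2 and 45.1 CPM in sph/sph anti-CD40. Its saline libraries lay at 12.1 to 51.9 CPM, overlapping the sph/sph anti-CD40 group and not the WT one. The interaction was -3.97 (SE 0.73, adjusted p 0.0147), and it was lost only without WT saline C (adjusted p 0.0506). Cxcl1, a neutrophil chemokine, had low levels throughout, 2.99, 3.57 and 2.41 CPM in WT anti-CD40 and 0.760, 1.41 and 0.809 CPM in sph/sph anti-CD40. Its interaction of -2.84 (SE 0.63, adjusted p 0.0345) was lost without any saline library, B or C of WT anti-CD40, or A of sph/sph anti-CD40 (adjusted p up to 0.102). The promoters of these ligand genes are shown because they are the 2 called lower whose windows hold an NF-kB motif, with Csf1 (minus strand) at chr3:107760470-107760719 and Cxcl1 (plus strand) at chr5:90890995-90891244. Both are the 250 bases before the RefSeq start site (GRCm38.p6, 5′ to 3′), and capitals mark GGGANTTTCC on either strand, 1 match in each.
Csf1: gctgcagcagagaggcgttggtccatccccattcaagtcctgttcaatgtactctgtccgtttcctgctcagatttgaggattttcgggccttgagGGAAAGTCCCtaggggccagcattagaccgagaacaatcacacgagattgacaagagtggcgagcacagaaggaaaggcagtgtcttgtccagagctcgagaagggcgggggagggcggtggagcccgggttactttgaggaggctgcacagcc
Cxcl1: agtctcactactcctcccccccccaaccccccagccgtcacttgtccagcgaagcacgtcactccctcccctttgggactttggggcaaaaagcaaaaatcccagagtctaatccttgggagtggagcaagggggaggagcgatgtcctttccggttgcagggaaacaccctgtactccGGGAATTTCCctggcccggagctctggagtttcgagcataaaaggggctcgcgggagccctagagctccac
The match in Csf1 is on the opposite strand and begins 154 bases before the start site; that in Cxcl1 begins 71 bases before it.

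Receptors and markers of activated lymphocytes and myeloid cells followed. Il12rb2, the chain that transmits interleukin 12 signals, was at 15.6, 46.4 and 28.1 CPM in WT anti-CD40 and 7.39, 6.80 and 4.96 CPM in sph/sph anti-CD40, with -5.54 (SE 0.64, adjusted p 0.00106). Tnfrsf9, the costimulatory receptor 4-1BB, lay at 38.7, 133 and 83.9 CPM and 7.25, 15.2 and 5.18 CPM, with -7.73 (SE 1.25, adjusted p 0.00841). In Il12rb2 and Tnfrsf9 these gaps under anti-CD40 make up only a part of the interaction. The rest is a fitted difference under saline, with sph/sph the higher genotype. Ly6c1, an antigen of monocytes and endothelial cells with a near-identical neighbour whose reads the counting could split, had -4.59 (SE 0.63, adjusted p 0.00325). It was the only one called of 22 monocyte markers, of which 8 had a positive and 14 a negative interaction (median -0.13). Without library C of sph/sph anti-CD40 the marker Treml4 was also called, as higher, and the median was 0.03. Tubb3, a tubulin best known from neurons, had -7.75 (SE 1.16, adjusted p 0.00557). Cst7, the protease inhibitor cystatin F of cytotoxic and myeloid cells, had -5.71 (SE 1.06, adjusted p 0.0152), lost without A or C of WT saline, or A or B of sph/sph saline (adjusted p up to 0.0531). Il12rb2, Tnfrsf9, Ly6c1 and Tubb3 were called in all leave-one-out fits, while limma-voom did not call Tnfrsf9, Tubb3 or Cst7.

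**Figure D3:**
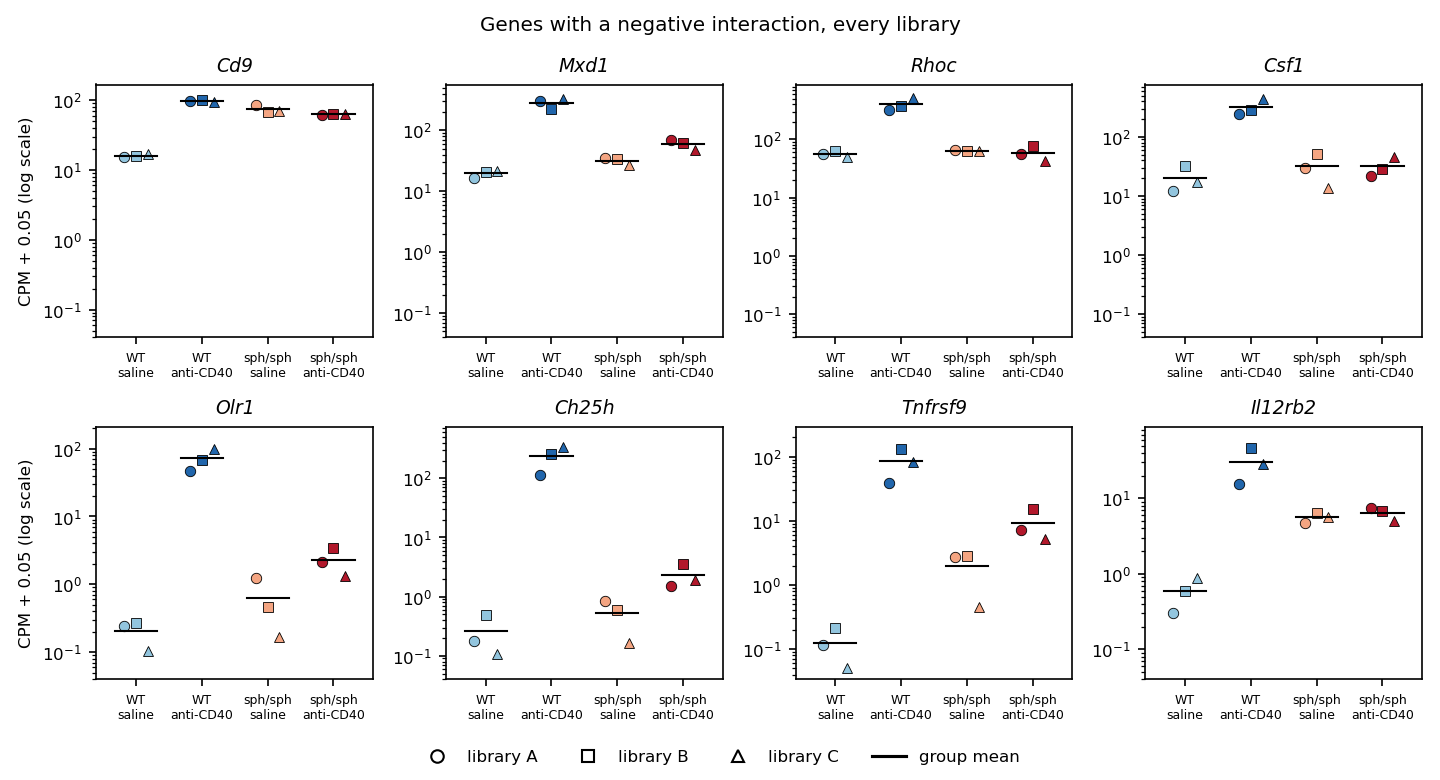
CPM plus 0.05 on a log axis for 8 genes with a negative interaction, one point per library and a bar at each group mean, by genotype and treatment. In each panel the 3 WT anti-CD40 libraries lie above the 3 sph/sph anti-CD40 libraries; for Cd9 the WT saline libraries lie apart below all others.

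Among 23 matrix proteases and inhibitors, 2 were called higher and 3 lower (median -1.33). Adamts4, an aggrecanase, had -6.16 (SE 1.09, adjusted p 0.0123), from 29.5, 63.7 and 80.1 CPM in WT anti-CD40 to 1.24, 4.36 and 3.35 CPM in sph/sph anti-CD40. Timp1, an inhibitor of metalloproteases, had -5.50 (SE 0.99, adjusted p 0.0126). Adam8, a membrane protease of activated leukocytes, had -3.91 (SE 0.91, adjusted p 0.0407) and was lost without any saline library, A or B of WT anti-CD40, or A or B of sph/sph anti-CD40 (adjusted p up to 0.11). The matrix metalloproteases Mmp27 and Mmp12 had the opposite sign, 7.60 (SE 0.91, adjusted p 0.00144) and 4.81 (SE 0.98, adjusted p 0.0239). Mmp12 was lost without A or C of WT saline, B or C of sph/sph saline, or C of WT anti-CD40 (adjusted p up to 0.0726), while Adamts4, Timp1 and Mmp27 held in all leave-one-out fits. In limma-voom 1 gene of the list was lower and none higher, and Adamts4, Mmp27, Mmp12 and Adam8 were not called. The list had 3 higher and 4 lower without library C of sph/sph anti-CD40. Mmp27 had 4 counts over the 3 WT anti-CD40 libraries.

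The hypoxia and amino acid lists had lower calls alone. Of 34 glycolysis and hypoxia genes, 3 were called lower and none higher (median -0.72, and -0.38 with 4 lower without library C of sph/sph anti-CD40). Egln3, a prolyl hydroxylase that marks hypoxia-inducible factors, lay at 0.769 to 0.900 CPM in WT saline, 6.58 to 11.5 CPM in WT anti-CD40, 13.6 to 15.7 CPM in sph/sph saline and 15.7 to 29.4 CPM in sph/sph anti-CD40. Its interaction of -2.76 (SE 0.39, adjusted p 0.00363) held in all leave-one-out fits. Hif1a, the hypoxia-inducible factor itself, had -1.56 (SE 0.34, adjusted p 0.0316), and Slc2a1, the glucose transporter GLUT1, -2.42 (SE 0.58, adjusted p 0.0451). These were lost without any saline library, or B or C of WT anti-CD40 for Hif1a (adjusted p up to 0.0949) and without any saline library, any WT anti-CD40 library, or A of sph/sph anti-CD40 for Slc2a1 (up to 0.116). Of 25 genes of the unfolded protein and amino acid response, 3 were called lower and none higher (median -0.35). Atf4, the factor of the integrated stress response, had -1.05 (SE 0.25, adjusted p 0.0449), Asns, asparagine synthetase, -3.43 (SE 0.83, adjusted p 0.047), and Phgdh, the first enzyme of serine synthesis, -4.62 (SE 1.08, adjusted p 0.0409). Atf4 was lost without any saline library, B or C of WT anti-CD40, or B or C of sph/sph anti-CD40 (up to 0.116), Asns without any WT saline library, A or B of sph/sph saline, any WT anti-CD40 library, or B or C of sph/sph anti-CD40 (up to 0.119) and Phgdh without any WT saline library, A or B of sph/sph saline, B or C of WT anti-CD40, or A or B of sph/sph anti-CD40 (up to 0.107). Without library C of sph/sph anti-CD40, Phgdh was the only member of that list called, and the list median was -0.08.

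In some called genes the genotypes differed more under saline than under anti-CD40. Cyfip2, a subunit of the actin regulator WAVE, lay at 12.9, 17.7 and 13.1 CPM in saline-treated WT and 70.0, 66.2 and 63.3 CPM in saline-treated sph/sph libraries, and at 215, 262 and 157 CPM and 168, 192 and 153 CPM under anti-CD40. The saline groups did not overlap and the anti-CD40 groups did, with -2.50 (SE 0.28, adjusted p 0.00102). Lrp8, a reelin and apolipoprotein E receptor, had genotype differences of 3.88 under saline and -0.40 under anti-CD40 (log2, sph/sph minus WT), and an interaction of -4.28 (SE 0.65, adjusted p 0.00574). Both held in all leave-one-out fits, and limma-voom did not call Lrp8. Both were among the 62 of 109 named called genes that were lost without the 4 A libraries. Slc27a6, a fatty acid transporter, was a case among the genes called higher: it lay at 34.3, 32.7 and 70.9 CPM in WT saline and at most 1.22 CPM in the other libraries, with 6.65 (SE 1.41, adjusted p 0.0287). That call was lost without A or C of WT saline, A or B of sph/sph saline, C of WT anti-CD40, or B or C of sph/sph anti-CD40 (adjusted p up to 0.241) and in limma-voom.

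Several cytokines and effectors for which anti-CD40 is known were not called. Of 32 inflammatory cytokines and chemokines, 2 were called higher and 2 lower, against 3.18% and 1.12% of all tested genes, and 2 and 5 without library C of sph/sph anti-CD40, with a median interaction of -1.85 and a median SE of 1.35. Tnf, tumour necrosis factor, lay at 638, 118 and 157 CPM in WT anti-CD40, 44.8, 94.7 and 2.91 CPM in sph/sph anti-CD40 and 2.19 to 5.91 CPM under saline. Library C of sph/sph anti-CD40 lay within the saline range and the other 5 anti-CD40 libraries above it. The interaction was -2.52, with an interval of -5.68 to 0.64 and an adjusted p of 0.382, and -1.93 without library C (adjusted p 0.293). Il12b, the shared chain of interleukins 12 and 23, lay at 112, 30.4 and 30.4 CPM in WT anti-CD40 and 1.87, 3.85 and 0.162 CPM in sph/sph anti-CD40. These groups did not overlap, but its interaction of -5.25 (SE 1.59, adjusted p 0.0993) missed the threshold with and without library C (-4.65, adjusted p 0.0724); DESeq2 called it (-5.24, adjusted p 0.0074) and limma-voom did not (adjusted p 0.278).

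Cxcl9, an interferon-gamma-induced chemokine for T cells, lay at 3973, 3813 and 6311 CPM in WT anti-CD40 and 788, 683 and 12.8 CPM in sph/sph anti-CD40, and its interaction was -3.03 (interval -6.25 to 0.20). Nos2, inducible nitric oxide synthase, lay at 1144, 79.1 and 98.8 CPM and 38.6, 35.9 and 0.378 CPM, with -4.0 (interval -9.37 to 1.38). In both genes library C stood at the saline level, and in Nos2 the WT library A stood above the rest of its group. Cxcl10, Il1b and Il6 were not called either, at -1.83, 0.86 and 0.34 (SE 1.40, 1.08 and 1.24). Ccl2, a monocyte chemokine, was at -2.43 (adjusted p 0.359) and was called without library C (-1.84, adjusted p 0.0447). Intervals of several log2 units mean that these misses do not show equal responses.

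Il10, the anti-inflammatory cytokine, had a pattern of its own. It lay at 3.34, 2.42 and 3.49 CPM in saline-treated WT libraries, 4.79, 1.78 and 3.55 CPM in saline-treated sph/sph libraries, 3.13, 3.78 and 2.17 CPM in WT anti-CD40 and 54.9, 54.1 and 1.35 CPM in sph/sph anti-CD40. Libraries A and B of the last group were more than 10 times as high as any other library, and library C was the lowest of all 12. The interaction of 3.47 (SE 1.30, adjusted p 0.178) was not called with all libraries (DESeq2 adjusted p 0.0504) and was 4.07 without library C (edgeR adjusted p 0.00222).

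**Figure D4:**
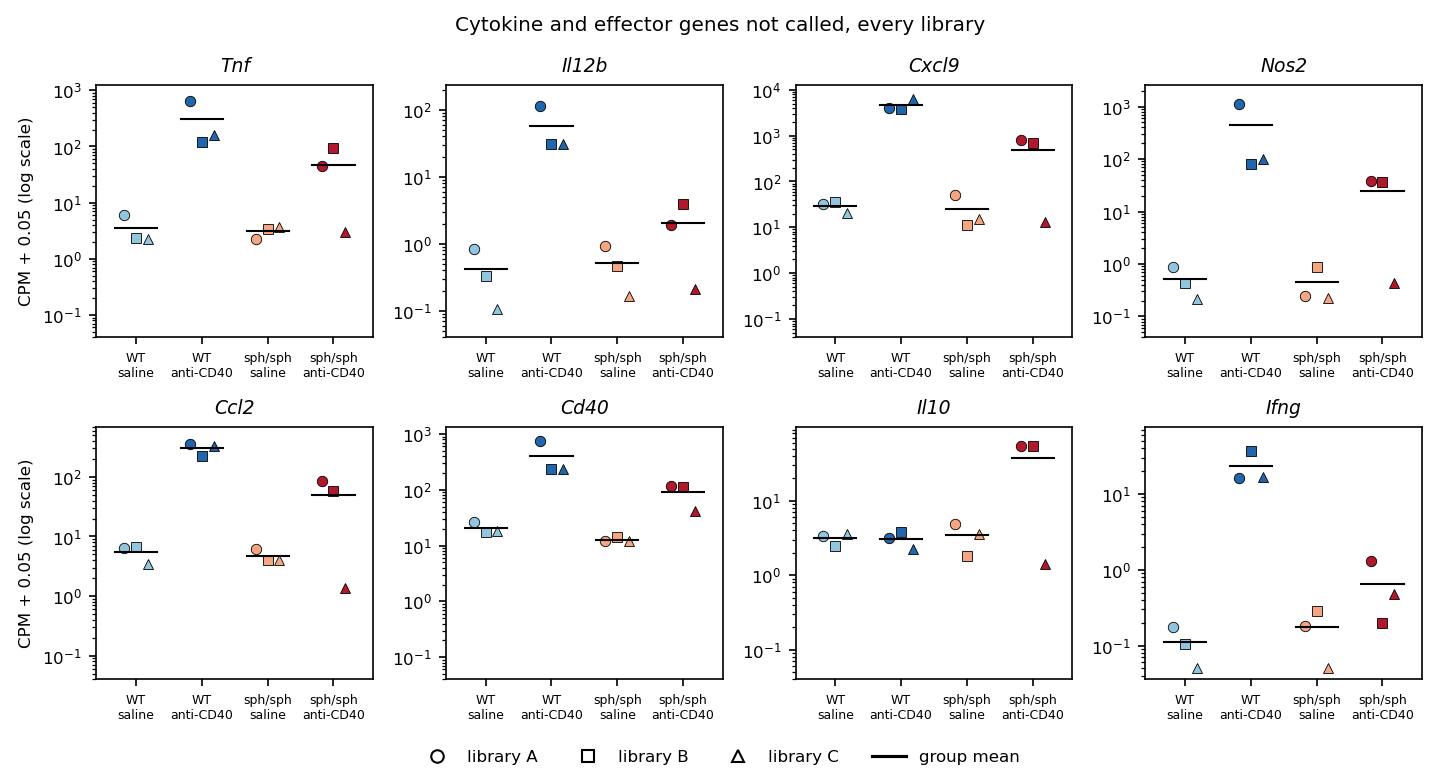
CPM plus 0.05 on a log axis for 8 cytokine and effector genes whose interaction was not called, one point per library and a bar at each group mean, by genotype and treatment. Library C of sph/sph anti-CD40 (triangle in the last column) lies with the saline libraries for Tnf, Cxcl9, Nos2 and Il10, apart from A and B.

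Of 36 genes of CD40 and NF-kB signalling, 1 was called lower and none higher (median -0.37), a count near the 4.30% of all tested genes. That gene was Tnip1, which restrains NF-kB together with A20, at -1.93 (SE 0.40, adjusted p 0.0239); it was lost without any WT saline library, or A or B of sph/sph saline (adjusted p up to 0.0758). Cd40 itself, the target of the antibody, lay at 741, 235 and 232 CPM in WT anti-CD40 and 116, 111 and 41.2 CPM in sph/sph anti-CD40, against 12.1 to 26.8 CPM under saline. All anti-CD40 libraries were above all saline libraries, and the WT ones above the sph/sph ones, yet the interaction of -1.46 (interval -3.00 to 0.08, adjusted p 0.296) was not called. Of 32 interferon-gamma response genes, Ifngr1, a chain of the interferon-gamma receptor, was called higher at 1.55 (SE 0.27, adjusted p 0.012), and Irf8 and the kinase gene Jak2 lower, the latter at -0.98 (SE 0.22, adjusted p 0.0343). In this list 4 genes had a positive and 28 a negative interaction (median -0.99). At an unadjusted edgeR p under 0.05, 1 was higher and 8 were lower. Without library C of sph/sph anti-CD40, 1 gene was called higher and 5 lower, and the median was -0.71. Ifngr1 held in all leave-one-out fits, and Jak2 was lost without any saline library, B or C of WT anti-CD40, or A of sph/sph anti-CD40 (adjusted p up to 0.103). None of 31 type I interferon-stimulated genes was called by edgeR, with 1 higher and 3 lower at an unadjusted p under 0.05; DESeq2 called 2 lower and limma-voom none. Without library C of sph/sph anti-CD40 edgeR called Oas2, an RNA-sensing synthetase, higher and Isg20 and Bst2, an exonuclease and tetherin, lower, and the list median went from -0.23 to 0.145.

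The antigen presentation lists had medians of opposite sign. None of 12 class II genes was called by edgeR, DESeq2 or limma-voom (median 1.09), and 1 had an unadjusted edgeR p under 0.05; without library C of sph/sph anti-CD40 edgeR called 2 lower, H2-Oa and H2-DMb2, and the median was 1.26. The class I list had a median of -0.90, and -0.56 without that library. H2-Aa, a class II chain, was at 1.57 (interval -0.30 to 3.43) and Cd74, the invariant chain, at 1.78 (interval -0.06 to 3.61). H2-Aa lay at 3691, 2217 and 978 CPM in saline-treated WT libraries, 431, 113 and 189.8 CPM in saline-treated sph/sph libraries, 4261, 1483 and 1852 CPM in WT anti-CD40 and 885, 655 and 857 CPM in sph/sph anti-CD40, so the saline groups did not overlap. Of 22 class I genes, Tap2, a subunit of the peptide transporter, was called lower at -1.58 (SE 0.38, adjusted p 0.0463). It was lost without any saline library, any WT anti-CD40 library, or B of sph/sph anti-CD40 (adjusted p up to 0.124). All 22 class I genes had a negative interaction, and 9 were lower at an unadjusted edgeR p under 0.05. DESeq2 called 6 of them lower and limma-voom none.

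None of 35 respiratory chain genes was called by edgeR, DESeq2 or limma-voom (median -0.06, and 0.16 without library C of sph/sph anti-CD40; none at an unadjusted edgeR p under 0.05). None of 24 cholesterol synthesis genes was called by edgeR or limma-voom and 2 were lower by DESeq2 (median -0.49, 3 lower at an unadjusted edgeR p under 0.05). Among 40 cell cycle genes Tk1, thymidine kinase, was higher at 2.28 (SE 0.54, adjusted p 0.0421) and Ccnd3, cyclin D3, lower at -1.32 (SE 0.33, adjusted p 0.0487). Tk1 was lost without any saline library, A or C of WT anti-CD40, or A or B of sph/sph anti-CD40 (adjusted p up to 0.115) and Ccnd3 without any saline library, B or C of WT anti-CD40, or B or C of sph/sph anti-CD40 (up to 0.129). Among 32 NRF2 targets Ephx1 was the one called. Both counts are near the 4.30% of all tested genes; without library C of sph/sph anti-CD40 the cell cycle list had 2 higher and 1 lower and the NRF2 list 2 higher and 1 lower. None of 8 Fc gamma receptor genes was called by edgeR, with 3 higher at an unadjusted p under 0.05, 2 higher by DESeq2 and none by limma-voom.

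**Figure D5:**
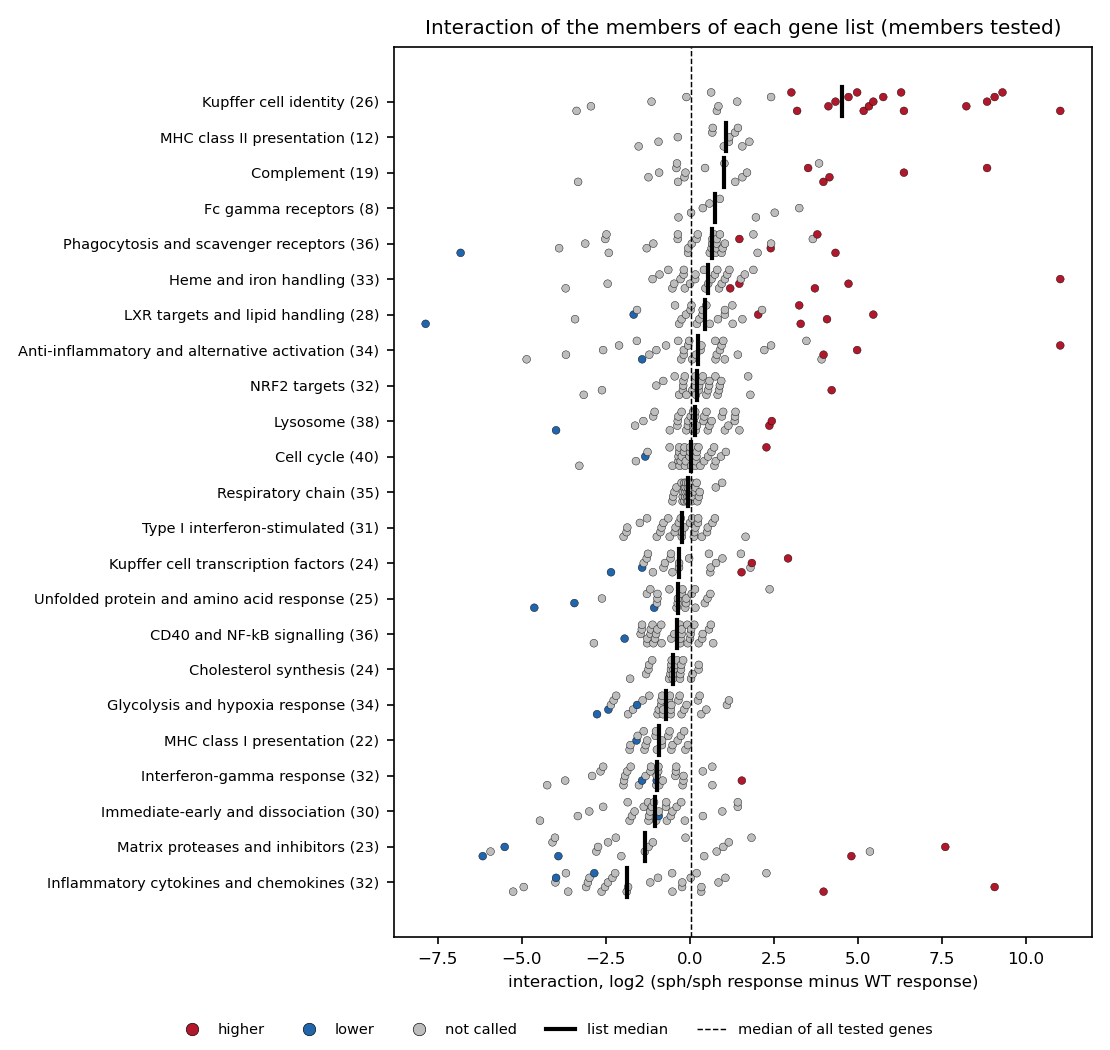
Interaction (log2, sph/sph response minus WT response) of each tested member of 23 gene lists, one point per gene, red where called higher, blue where called lower and grey otherwise, with a bar at the list median and a dashed line at the median of all tested genes (0.05). The Kupffer cell identity list has the highest median (4.53) and the inflammatory list the lowest (-1.85), the latter with 4 called genes.

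Markers of other cells moved with the groups and are given beside these results; their part in the interaction was not tested. Of 36 T and NK cell markers, 2 were called lower and none higher (16 lower by DESeq2, none by limma-voom), with a median interaction of -4.05, the lowest of the 36 lists. Their summed level was 1118 to 3821 CPM in WT anti-CD40, 182 to 401 CPM in sph/sph anti-CD40 and 103 to 186 CPM under saline, with no overlap between the anti-CD40 groups. Gzma, granzyme A, lay at 37.9, 577 and 179 CPM and 12.1, 0.740 and 9.98 CPM under anti-CD40 in WT and sph/sph, with -7.12 (SE 1.67, adjusted p 0.0409), and Nkg7, a protein of cytotoxic granules, had -5.97 (SE 1.46, adjusted p 0.0484). Both were lost without any saline library, B or C of WT anti-CD40, or A or B of sph/sph anti-CD40 (adjusted p up to 0.135 for Gzma and 0.136 for Nkg7). Ifng, interferon gamma, which T and NK cells make, had 3 counts over the WT saline libraries and lay at 16.2, 37.1 and 16.5 CPM in WT anti-CD40 and 1.24, 0.148 and 0.432 CPM in sph/sph anti-CD40. Its fitted interaction of -6.22 (SE 1.58, adjusted p 0.0563) missed the threshold and depends on the prior count; DESeq2 called it (adjusted p 5.17e-04) and limma-voom did not (adjusted p 0.163). In edgeR it was called without sph/sph saline C (adjusted p 0.0406) or without sph/sph anti-CD40 A (adjusted p 0.0313). Without library C of sph/sph anti-CD40, 9 of 37 markers of the list were called lower.

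Among 21 neutrophil markers S100a9, a calcium-binding alarmin, was called lower at -4.48 (SE 1.05, adjusted p 0.041). It was lost without any WT saline library, A or B of sph/sph saline, A or B of WT anti-CD40, or B or C of sph/sph anti-CD40 (adjusted p up to 0.105). The count of 1 is near the 4.30% of all tested genes. In this list 5 had a positive and 16 a negative interaction (median -2.33), and 6 were lower at an unadjusted edgeR p under 0.05. DESeq2 called 3 lower and limma-voom none. Without library C of sph/sph anti-CD40 the median was -1.88, and Ly6g was the 1 member called, as lower. Among 32 erythroid markers Epor, the erythropoietin receptor, was called higher at 2.92 (SE 0.57, adjusted p 0.019). Its call was lost without C of WT saline, A of sph/sph saline, or B of WT anti-CD40 (adjusted p up to 0.0623). The count of 1 is near the 3.18% of all tested genes called higher. The erythroid list had 20 positive and 12 negative interactions (median 1.27), with 3 higher and 6 lower at an unadjusted edgeR p under 0.05. DESeq2 called 2 higher and 3 lower, and limma-voom none. The summed erythroid level was 239 to 598 CPM in WT and 5705 to 18262 CPM in sph/sph libraries, a genotype difference in both treatments. Among 24 B cell markers, Bank1, a B cell scaffold, was called higher at 3.51 (SE 0.61, adjusted p 0.0116), with library C the highest of its group and 2.62 without it, still called. The median of these B cell markers was 0.43 with all libraries and -2.85 without library C of sph/sph anti-CD40. None of 23 liver endothelial or 32 hepatocyte markers was called by edgeR or limma-voom, and 2 of each had an unadjusted edgeR p under 0.05. DESeq2 called 2 endothelial markers lower and 1 hepatocyte marker higher. The endothelial list had 6 positive and 17 negative interactions, with a median of -0.90, and of -2.73 without library C of sph/sph anti-CD40. Its summed level was 4726 to 12086 CPM in WT anti-CD40, 1405 to 4701 CPM in sph/sph anti-CD40 and 1962 to 6926 CPM under saline. Of 18 megakaryocyte and platelet markers 1 was higher and 1 lower (median -0.50). Of 12 markers of basophils, mast cells and eosinophils 2 were called higher and none lower. In this list 4 had a positive and 8 a negative interaction, with a median of -1.33, and of -3.68 without library C of sph/sph anti-CD40. None of 22 stellate cell and fibroblast markers was called by edgeR or limma-voom, with 2 higher by DESeq2 and 3 higher at an unadjusted edgeR p under 0.05. With library C of sph/sph anti-CD40 left out, 3 erythroid markers were higher, 5 megakaryocyte and platelet markers were lower, and S100a9 was not called.

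Dendritic cell markers also differed between the responses. Of 23 tested, 18 had a negative interaction (median -1.80), 1 was called lower and 1 higher, and 8 were lower at an unadjusted p under 0.05. DESeq2 called 7 lower and 1 higher, limma-voom none, and edgeR without library C of sph/sph anti-CD40 called 7 lower and 2 higher (median -2.66). The called genes were Cacnb3, a calcium channel subunit, at -3.68 (SE 0.91, adjusted p 0.0487), lost without every library in turn except C of sph/sph saline (adjusted p up to 0.132), and Cadm1, an adhesion molecule, at 1.76 (SE 0.42, adjusted p 0.0444), lost without any saline library, B or C of WT anti-CD40, or B of sph/sph anti-CD40 (adjusted p up to 0.122). The summed level was 3434 to 6891 CPM in WT anti-CD40, 1883 to 3822 CPM in sph/sph anti-CD40 and 1885 to 2625 CPM under saline, so the anti-CD40 groups overlapped. Irf8, Il12b and Cxcl9 are also made by dendritic cells, and the part of these cells in their values was not tested.

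The 250 bases before the start site were searched in 10544 tested genes with a RefSeq window, of which 338 were called higher and 121 lower. The PU.1 core GAGGAA was present on either strand in 31.7% of the windows called higher, 20.7% of those called lower and 22.8% of all. The NF-kB motif GGGANTTTCC was present in 0.296%, 1.65% and 0.36%, that is in 1, 2 and 38 windows. The interferon-stimulated response element GAAANNGAAA was present in 0.592%, 0.826% and 2.86%. The ATF4 element TGATGNAA was present in 2.66%, 2.48% and 2.04%. A match describes the letters of the window and is not a measured binding site, and these shares were not tested.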

How the data were processed

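RNA sequencing of 12 libraries of F4/80-enriched nonparenchymal liver cells was analysed from the deposited table of raw read counts per gene. The submitters' processing notes name featureCounts, SAMtools 1.9, STAR 2.7.0e and build GRCm38.p5; annotation release, strand setting and handling of multimapping reads were not given in the sources used here, so overlapping genes and near-identical copies are uncertain. A stranded TruSeq kit was used, per the labels' protocols. The series' design text counts mice, so libraries are taken as separate animals; columns were assigned to groups by treatment and genotype and carry no replicate number. The table lists 25700 gene identifiers, 25587 with a symbol. Coordinates are from GENCODE M21 (GRCm38), counted from 1, and promoter windows from a RefSeq table of GRCm38.p6.

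The interaction was fitted in edgeR 4.0.16 (R 4.3.3) with the filterByExpr filter on groups, trimmed mean of M values normalization, a robust quasi-likelihood fit with a mean per group and no covariate, and the F test of the interaction contrast, with Benjamini-Hochberg adjustment over all genes tested. A gene was called at an adjusted p under 0.05. SE is the size of the log2 value over the square root of F, and intervals are 95% confidence intervals. All adjusted p values in the text are edgeR's unless another tool is named. The common biological coefficient of variation was 0.382. The groups of 3 libraries limit precision. On simulated counts with 13729 genes tested, the interaction fit recovered 61 of 100 genes changed by 2 (log2) and 92 of 100 changed by 4, with 6 false calls. The changed genes had a mean of at least 10 CPM, and genes at a cap on the simulated level were left out of the false calls. Counts were drawn independently from the fitted dispersions with no outlying library, so these figures need not hold for the real libraries.

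The interaction, the 36 gene lists and the fixed genes were chosen with earlier results of these data known. Named genes are the 15 called genes per direction with the largest change at a mean of at least 10 CPM, the 15 per direction with the lowest p, in each list the called members or the 6 of lowest p per direction, the 24 fixed genes, and up to 5 per response shape. From these 127 the text names those with a stated role, a few results are not reported here, and Cd68, Lyz2 and Lyve1 were added after their values were seen. Alternatives were other normalizations (RLE, upper quartile, library totals), other filters, a non-robust fit, DESeq2 1.42.0, limma-voom (limma 3.58.1), a test against a 1.5-fold difference, a term for Y-linked counts, an adjusted p under 0.01, leaving out each library, and, chosen after seeing the data, leaving out the 4 libraries without Y-linked counts and a term for each number that 2 column names share.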

Additional observations from a re-analysis of the deposited data

Results flagged for a closer look

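The difference between the responses of the 2 genotypes was itself tested, and it was called for 595 genes, 440 higher and 155 lower. Among the genes fixed for description it was called for Clec4f at 9.31, Vsig4 at 8.85, Cd163 at 11.03, Slc40a1 at 4.73, Timd4 at 4.34 and Adgre1 at 4.13 (log2, sph/sph response minus WT response). In all of these the WT anti-CD40 libraries were the lowest of the 12. Summed T and NK cell markers were 1118 to 3821 CPM in these WT libraries against 182 to 401 CPM in sph/sph anti-CD40, and the part of this difference in the interaction was not tested.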

How the results depend on the processing

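No paired analysis was possible because the columns carry no replicate numbers. A term for each of the 2 long numbers that the names of the A columns share was chosen after seeing the data. In that fit 499 genes were called (372 higher, 127 lower), 442 of them among the 595, and 18 of the 109 named called genes lost the call. Of the 109 named genes that were called, 67 kept the call in all 12 fits that left out 1 library (47 of 64 higher and 20 of 45 lower), and 102 kept it without library C of sph/sph anti-CD40. None lost it in the non-robust fit or in DESeq2, 2 of the 105 still tested lost it with the stricter filter, 2 with upper-quartile factors, 3 with RLE size factors, 8 with library totals alone, 9 with the term for Y-linked counts, 16 with no filter, 27 in limma-voom, 31 against a 1.5-fold difference, 55 at an adjusted p under 0.01 and 62 without the 4 libraries that lack Y-linked counts.

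With single libraries left out, the called genes numbered 259 to 944, with 211 to 691 higher and 48 to 337 lower. The smaller falls in sph/sph numbered 191 to 599, the smaller rises 30 to 160, opposite signs 36 to 358, larger falls in sph/sph 0 to 3 and larger rises 0 to 4. List members called were 29 to 69 higher and 6 to 39 lower for the programs (41 and 23 with all libraries), and 5 to 13 higher and 1 to 22 lower for the markers (8 and 6).

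DESeq2 called 1393 genes (834 higher, 559 lower; 706 smaller falls, 345 smaller rises and 342 of opposite sign), with 63 program members higher, 63 lower, and 13 and 33 marker members. In limma-voom 97 genes were lower, with 67 smaller rises, and 5 marker members were higher and 1 lower. Against a 1.5-fold difference 277 genes were called (223 higher, 54 lower; 207, 38 and 32 by shape), with 7 program members and 1 marker member lower. At an adjusted p under 0.01 the counts were 176 (147 higher, 29 lower; 139, 21 and 16 by shape), with 21 program members higher and 3 lower, and 1 marker member in each direction. Marker members lower were 3 with library totals alone, with the stricter filter and with the term for Y-linked counts, and 1 with no filter, where program members lower were 15. Without the 4 libraries that lack Y-linked counts, 153 genes were called (135 higher, 18 lower; 129, 11 and 13 by shape), 132 of them among the 595, with 25 program members higher and 3 lower and 1 marker member in each direction; with 2 libraries a group, this alternative was chosen after seeing the data. In each other setting the counts stayed within 1.5 times.

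Il6, not called in any setting that tested it, was 0.34 with all libraries and ranged from -0.71 to 1.34 (without WT anti-CD40 A) with single libraries left out. It turned negative in limma-voom at -0.33 and without WT saline A at -0.02, WT anti-CD40 C at -0.01 and sph/sph anti-CD40 B at -0.71. Groups of 3 libraries limit the calls: the interaction of noisy genes such as the cytokines has intervals of several log2 units, and genes with under 4 counts in a group have fitted values that depend on the prior count. The causes of these changes were not tested.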

Other observations

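The families below were chosen after their values were seen. For Cd300ld3, Cd300ld, the Toll-like receptors and the tRNA synthetases below, the leave-one-out fits are not reported here. Over all tested genes 3.18% were called higher and 1.12% lower. Of 22 tested receptors of the CD300, Siglec and LILR families, 9 were called higher and none lower (median interaction 1.72), led by Lilra5 (5.03), Cd300ld3 (4.18) and Cd300ld (3.80). Cd300ld lay at 60.2, 27 and 34.3 CPM in WT anti-CD40 and 301, 406 and 414 CPM in sph/sph anti-CD40; its family has close copies whose reads the counting could split. Of 12 Toll-like receptors, 3 were called higher and none lower (median 1.06). These were Tlr8, a sensor of RNA breakdown products, at 4.30 (SE 0.48, adjusted p 0.00101), Tlr5, the flagellin receptor, at 4.27 (SE 0.88, adjusted p 0.0239), and Tlr12, a sensor of profilin in mice, at 3.14 (SE 0.54, adjusted p 0.0114). Tlr8 lay at 8.58, 4.51 and 3.50 CPM in WT anti-CD40 and 62.2, 102 and 108 CPM in sph/sph anti-CD40, with no overlap.

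Of 24 tetraspanins, 4 were called lower and none higher (median -0.55): Cd9, Cd82, Cd63 and Tspan33. Tspan33 lay at 2.12, 1.48 and 1.27 CPM in saline-treated WT libraries, 17, 52 and 13.4 CPM in saline-treated sph/sph libraries, 139, 44.7 and 54.3 CPM in WT anti-CD40 and 88, 62.9 and 26.6 CPM in sph/sph anti-CD40. The call of Tspan33 was lost without any WT saline library, B of sph/sph saline, or B of sph/sph anti-CD40 (adjusted p up to 0.0785). It was also lost in limma-voom. In all 4 the WT saline libraries were the lowest of the 12. Of 20 cytosolic aminoacyl-tRNA synthetases, which charge tRNAs, 3 were called lower and none higher (median -0.18): Sars at -0.83 (SE 0.19, adjusted p 0.0387), Yars at -1.21 (SE 0.28, adjusted p 0.04) and Wars at -2.40 (SE 0.57, adjusted p 0.0434).

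Of the 440 genes called higher, 14 are entries of the protocadherin alpha cluster, and 12 of them hold the same counts in every library, so they are not separate measurements. They had 1 count over the WT anti-CD40 libraries and 70 to 107 over the sph/sph anti-CD40 libraries, with interactions of 4.14 to 4.49. Counted once, the cluster leaves 427 genes called higher.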
